A study of Mus musculus with 24 samples.

Results

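Small leucine-rich proteoglycans are secreted proteins of the connective tissue matrix, and 7 of their genes are described here: Dcn, Bgn, Aspn, Lum, Fmod, Prelp and Ogn. They were taken by symbol from 24346 gene symbols listed in each of 24 RNA-seq libraries of mouse colorectal tissue, and Prelp was on the list because it was chosen by its FPKM, which was high in the tumors labelled KO-1-hetero; the other 6 were listed as its relatives. All 7 passed the filter on low values, which kept 13799 genes, but of the 6 libraries in which Fmod reached 1 FPKM, 3 were those same tumors. All animals had been given AOM/DSS, the carcinogen azoxymethane with dextran sulfate sodium, a polymer that inflames the colon; the combination induces colon tumors. The titles give c-MAF knockout libraries as KO-1-hetero (3 tumors, 2 normal), KO-8-hetero (3 tumors, 2 normal) and KO-8-homo (3 tumors, 2 normal), and wild-type libraries as WT-young (4 tumors, 2 normal) and WT-old (1 tumor, 2 normal). The labels explain neither the leading numbers nor what marks young and old. Strain, age, how and in which cells the gene was deleted, and which tumor and normal piece came from the same animal are not given in the sources used here. A group in this text is therefore a label, and the p-values measure only the spread between libraries of a label, which may be technical.

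The proteins of this family share a core of leucine-rich repeats that binds collagen, and they regulate how fibrils assemble and how far apart they lie. Decorin, biglycan and asporin form one class; the first pair carry chondroitin or dermatan sulfate chains, and all 3 can hold back or present TGF-beta. Lumican, fibromodulin and PRELP form another class, in which lumican and fibromodulin can carry keratan sulfate, while PRELP binds heparan sulfate and links basement membranes to collagen. Osteoglycin, also called mimecan, belongs to a further class. In the gut wall these genes are transcribed mainly by fibroblasts and other mesenchymal cells rather than by the epithelium.

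Values are FPKM, which corrects fragment counts for transcript length and for the size of the library, so levels of different genes can be compared per length. Between 12074 and 13290 genes reached 1 FPKM in a library, and depth estimated from low values ranged from 0.697 to 1.84 of the median library. Maf, the gene named as deleted, was not lower under the KO label: it ranged from 2.62 to 7.40 FPKM over 9 tumors labelled KO and from 1.63 to 7.26 FPKM over 5 labelled WT, and a value per gene does not show whether an exon is missing. A few libraries stood apart in ways that touch the results below. WT-young tumor 4 had the lowest Bgn of all 24 libraries, KO-8-hetero tumor 2 had the highest Dcn and Lum, and the WT-old tumor had 2937 summed FPKM of 10 smooth muscle markers against 179 to 380 in the WT-young tumors. Xist, the transcript of the inactive X chromosome in female cells, was above 1 FPKM in 6 libraries, all labelled KO: both normal pieces and tumor 3 of KO-1-hetero, and both normal pieces and tumor 3 of KO-8-hetero. These are bulk pieces of tissue, in which fewer cells of a type and less RNA per cell cannot be told apart.

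The genes lie in a few clusters with other members of the family. In the GENCODE vM21 annotation of mm10, the build named in the submitters' processing notes, Prelp (chr1:133910304-133921414, minus strand) and Fmod (chr1:134037254-134048277, plus strand) are 115.8 kb apart with 0 protein-coding genes between them, and Optc, the gene of opticin, lies 2.30 kb from Prelp. Dcn (chr10:97479609-97518143) is followed on the plus strand by Lum (chr10:97565128-97572703), Kera and Epyc. Aspn (chr13:49544443-49567565) and Ogn (chr13:49608046-49624501) flank Omd on the plus strand, and all of this cluster lies within Cenpp, which is read from the minus strand. Bgn (chrX:73483602-73495933) stands on the X chromosome. Because the strand setting of the authors' counting is not given, reads of Aspn and Ogn cannot be told apart from those of Cenpp, nor reads of Prelp from those of the antisense gene Gm15851, where they overlap.

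**Figure D1:**
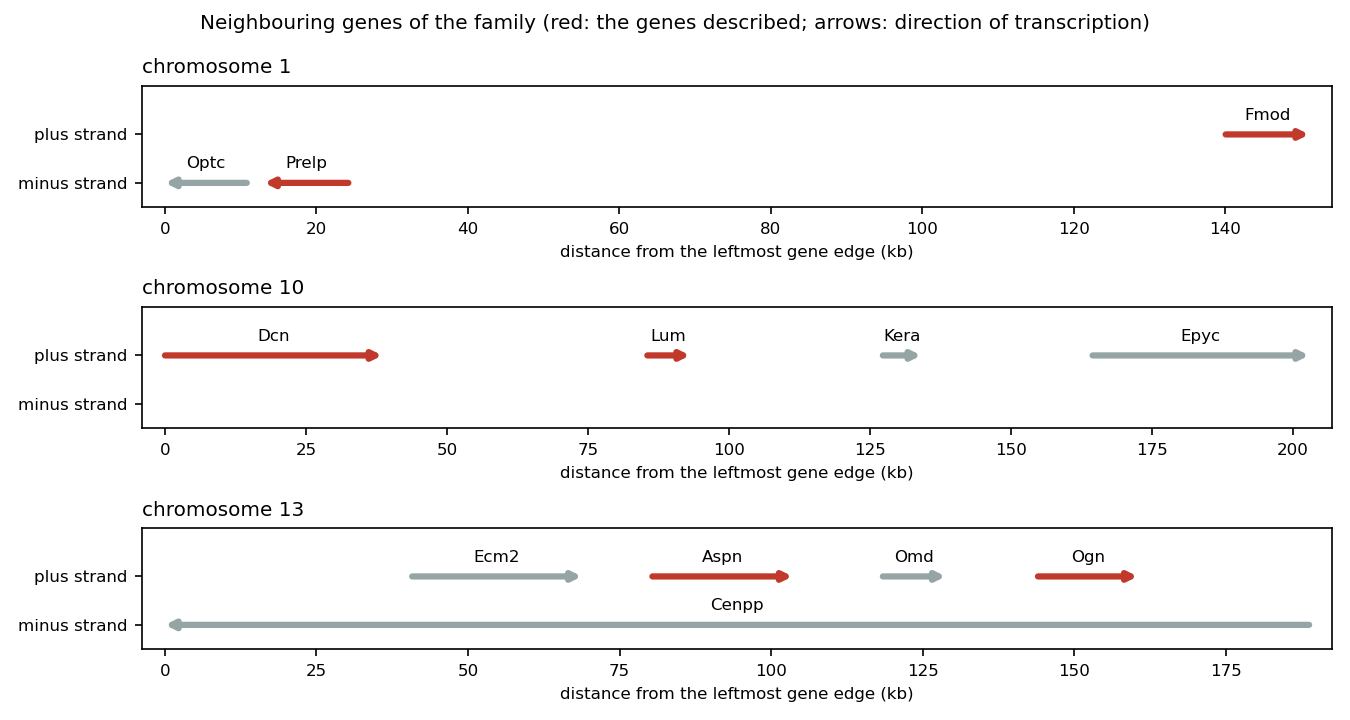
Map of the gene clusters on chromosomes 1, 10 and 13; the horizontal axis is the distance in kb from the leftmost gene edge, and each arrow is a gene drawn to scale in its direction of transcription, red for genes of the described list. Prelp and Fmod point away from each other across 115.8 kb, while Dcn and Lum, and Aspn and Ogn, point the same way.

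Promoters are shown for Prelp, Ogn and Aspn, the genes whose level in every KO-1-hetero tumor was above every KO-8 and WT-young tumor. The sequences are from RefSeq on GRCm38.p6 (the assembly that mm10 names), cover the 250 bases before the annotated start, and were available for 5 of the 7 genes. Each is written 5′ to 3′ on the strand of its gene, in lower case, with capitals for the motif TATAAA on either strand. The coordinates are chr1:133921402-133921651 for Prelp on the minus strand, chr13:49607765-49608014 for Ogn and chr13:49544193-49544442 for Aspn.
Prelp: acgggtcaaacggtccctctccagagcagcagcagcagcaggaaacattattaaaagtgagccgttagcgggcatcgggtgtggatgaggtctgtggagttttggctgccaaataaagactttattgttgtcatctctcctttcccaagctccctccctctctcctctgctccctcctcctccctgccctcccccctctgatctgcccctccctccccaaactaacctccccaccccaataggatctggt
Ogn: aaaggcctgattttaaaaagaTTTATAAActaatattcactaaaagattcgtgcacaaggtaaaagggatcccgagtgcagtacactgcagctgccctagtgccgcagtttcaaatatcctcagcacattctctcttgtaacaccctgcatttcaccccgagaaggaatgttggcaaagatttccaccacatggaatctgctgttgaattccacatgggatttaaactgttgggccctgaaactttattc
Aspn: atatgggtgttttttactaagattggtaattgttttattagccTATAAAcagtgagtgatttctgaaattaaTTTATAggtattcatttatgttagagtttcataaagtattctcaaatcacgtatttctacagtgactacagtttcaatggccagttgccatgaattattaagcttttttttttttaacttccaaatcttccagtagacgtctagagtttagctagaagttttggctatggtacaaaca

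The 3 promoters differed in base composition: GC content was 55.6% for Prelp, 42.0% for Ogn and 30.0% for Aspn, against a median of 52.4% over 32851 promoters of the same length. The motif TATAAA was found in Ogn, in a pair of matches that overlap each other on opposite strands, and in Aspn, and it is in 12.4% of all these promoters. The letters TGCTGAC, the core of the site bound by large MAF proteins, were not in the windows of the 5 genes and are in 3.81% of all promoters. The AP-1 motif TGACTCA (4.46% of all) and the CArG box of serum response factor (1.47% of all) were not in those windows either. These counts describe the printed letters only and were searched on both strands.

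Dcn and Bgn were by far the most abundant of the 7 transcripts, and together they took a larger share in tumors than in normal tissue. Over 10 normal libraries they made up 71.7% ± 4.64 (SD) of the summed FPKM of the 7 genes, with a range from 65.0% to 79.3%. Over 14 tumors the share was 89.8% ± 3.53 (SD), with a range from 83.4% to 94.8%, so that the lowest tumor lay above the highest normal library. Being a share within a library, this value does not move with the scaling between libraries. Ogn moved most in the other direction, from 11.9% ± 2.001 (SD, n = 10) of the sum in normal tissue to 2.98% ± 1.47 (SD, n = 14) in tumors. Lum went from 7.42% to 2.86% and Aspn from 4.65% to 1.90% of the sum, and Fmod was at most 0.389% of it in any library. The share of Prelp was 4.24% in normal libraries, 1.39% in WT-young tumors, 2.21% in KO-8 tumors and 4.01% in KO-1-hetero tumors. The sum itself ranged from 229 to 677 FPKM in normal libraries and from 282 to 1018 FPKM in tumors.

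**Figure D2:**
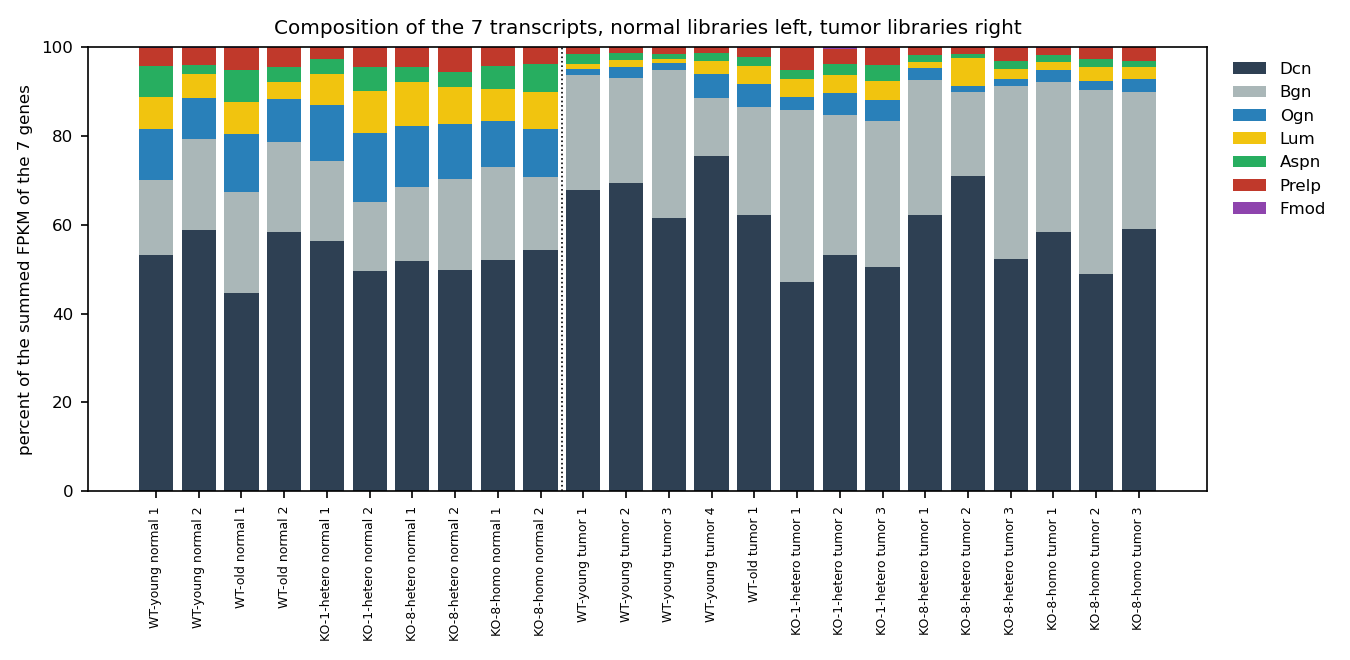
Share of each gene in the summed FPKM of the 7 genes (vertical axis, percent) in every library (horizontal axis), normal libraries to the left of the dotted line and tumors to the right. Dcn and Bgn fill 83.4% to 94.8% of the bar in tumors and 65.0% to 79.3% in normal libraries.

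Tumors were compared with normal tissue by limma on log2(FPKM + 1), in 1 model with all 10 groups, with Benjamini-Hochberg adjustment over the 13799 genes and a threshold of 0.05; the differences below are on that scale, on which changes of weakly expressed genes come out too small. In WT-young tumors against the 4 WT normal libraries, 4 of the 7 genes were lower (Ogn, Prelp, Lum and Aspn), 0 were higher and 3 did not pass. Prelp was chosen by a rise over these same WT-young tumors, so its part in this count and in the WT median below is not independent of that choice. Of all genes, 37.9% passed in this comparison, 19.4% as higher and 18.5% as lower. In the 6 KO-8 tumors against the 4 KO-8 normal libraries, the same 4 were lower, Bgn was higher and Dcn and Fmod did not pass, where 50.0% of all genes passed, 26.1% higher and 23.9% lower. The median difference of the 7 genes was -1.05 in WT and -0.81 in KO-8, beside 0.01 and 0.02 over all genes. Setting every library to the same summed FPKM moved the median of all genes by 0.24 in WT and 0.40 in KO-8, and the share of calls that were higher from 51.2% to 74.9% and from 52.2% to 84.7%. Under that scaling the KO-8 difference was -0.35 for Prelp (limma, adjusted p = 0.203) and -0.82 for Aspn (limma, adjusted p = 0.0548). Measured from the median of all genes, Prelp was 0.83 lower without the scaling and 0.78 lower with it. Such a scaling shifts nearly all genes alike, and taking off the median removes that shift. The closeness of these 2 values therefore follows from the method and is no test of the call.

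Decorin, the member best known for binding type I collagen and TGF-beta, kept a high level in both tissues. Dcn measured 379, 355, 233 and 213 FPKM in the WT-young tumors. Normal libraries held 361 and 268 FPKM for WT-young, and 102 and 134 FPKM for WT-old. Tumor 2 lay within the span of the young normal pair, tumor 1 above it and tumors 3 and 4 below it, and all 4 were above both old normal libraries. The difference from all 4 WT normal libraries was 0.58 (95% CI 0.02 to 1.14; limma, adjusted p = 0.0945), and it turned to -0.12 without the WT-old libraries. In KO-8-hetero tumors Dcn was 265, 722 and 292 FPKM, and in KO-8-homo tumors 338, 246 and 297 FPKM. KO-8 normal libraries held 287 and 246 FPKM (hetero) and 226 and 294 FPKM (homo), so that the 2 kinds of tissue overlapped and KO-8-hetero tumor 2, at 722 FPKM, stood alone. The KO-8 difference was 0.35 (95% CI -0.16 to 0.86; limma, adjusted p = 0.239), and 0.12 without that tumor (limma, adjusted p = 0.598). With every library set to the same summed FPKM, Dcn passed as higher in both, by 0.86 in WT (limma, adjusted p = 0.0181) and 0.84 in KO-8 (limma, adjusted p = 0.00808), and in WT also with the replicate block. In that block WT-young tumor 4 carries no weight, being the only library numbered 4.

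Biglycan, a close relative of decorin that can also signal through Toll-like receptors when released, was the 1 member that passed the test as higher. In KO-8-hetero tumors Bgn was 129, 194 and 217 FPKM and in KO-8-homo tumors 196, 208 and 156 FPKM, against 93.0, 102, 90.7 and 88.4 FPKM in the 4 KO-8 normal libraries. All 6 tumors were above all 4 normal libraries, which 14.1% of all genes also show, and the difference was 0.95 (SE 0.28; limma, adjusted p = 0.0106). In WT-young tumors Bgn was 145, 121, 127 and 37.2 FPKM, against 113 and 93.2 FPKM in WT-young and 51.9 and 46.3 FPKM in WT-old normal libraries. Tumor 4 was below every normal library and the other 3 tumors were above all of them. The WT difference of 0.42 (95% CI -0.23 to 1.07) did not pass (limma, adjusted p = 0.291); it was 0.87 without tumor 4 (limma, adjusted p = 0.00136) and -0.10 without the WT-old libraries.

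Asporin, a relative of decorin without the usual sugar chain attachment site and a known antagonist of TGF-beta, was lower in tumors. In KO-8-hetero tumors Aspn was 7.42, 9.60 and 10.99 FPKM, and homozygous tumors had 7.96, 8.92 and 7.49 FPKM, against 19.2, 16.8, 21.8 and 34.7 FPKM in KO-8 normal libraries. The groups did not overlap, as for 12.3% of all genes in this direction, and Aspn fell by 1.27 (SE 0.35; limma, adjusted p = 0.00709). In WT-young tumors it was 13.02, 8.17, 4.17 and 5.33 FPKM, against 46.7 and 9.88 FPKM in the young and 16.3 and 7.64 FPKM in the old normal libraries. These groups overlapped, and the normal libraries spread more widely than the tumors. The WT difference of -1.05 (SE 0.39; limma, adjusted p = 0.0411) was lost on leaving out tumor 2, 3 or 4, WT-young normal 1 or WT-old normal 1, with adjusted p up to 0.236, and under 5 other alternatives, among them upper-quartile scaling (limma, adjusted p = 0.0517).

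Lumican, which limits the thickness of collagen fibrils, was also lower, with 1 tumor far from the rest. Lum was 6.18, 8.56, 3.59 and 8.25 FPKM in WT-young tumors, against 48.9 and 24.6 FPKM in young and 16.7 and 8.96 FPKM in old normal libraries. The highest tumor lay just below the lowest normal library, a separation that 15.2% of all genes show in this direction. Lum fell by 1.57 (SE 0.48; limma, adjusted p = 0.0160). The call was lost without tumor 3, WT-young normal 1 or WT-old normal 1, where the difference was -1.34, -1.33 and -1.36. In KO-8-hetero tumors Lum was 5.68, 64.3 and 12.5 FPKM and in KO-8-homo tumors 10.5, 15.2 and 12.8 FPKM, against 54.6, 41.7, 31.3 and 45.0 FPKM in KO-8 normal libraries. Of the 6 tumors, 5 were below every normal library, while KO-8-hetero tumor 2 was above all of them. With it in the fit the KO-8 difference was -1.46 (SE 0.43; limma, adjusted p = 0.0105), and without it -1.93 (limma, adjusted p = 5.76e-05). The call was lost in a fit of only the groups compared (limma, adjusted p = 0.0519).

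Fibromodulin, which acts on collagen cross-linking, had the lowest level of the 7 genes. Fmod ranged from 0.0451 to 0.376 FPKM in WT-young tumors and from 0.0761 to 0.812 FPKM in WT normal libraries. In KO-8 tumors it ranged from 0.185 to 1.61 FPKM, and in KO-8 normal libraries from 0.320 to 0.689 FPKM. The ranges overlapped in both comparisons, and the differences were -0.33 in WT (95% CI -0.77 to 0.12; limma, adjusted p = 0.232) and 0.21 in KO-8 (95% CI -0.19 to 0.62; limma, adjusted p = 0.368).

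PRELP, the link between basement membranes and collagen, was lower in WT-young and KO-8 tumors than in their normal tissue. Prelp was 8.14, 6.37, 5.85 and 3.75 FPKM in WT-young tumors, against 28.1 and 17.5 FPKM in young and 11.7 and 10.3 FPKM in old normal libraries. Every tumor was below every normal library, as for 15.2% of all genes in this direction. The rise that chose Prelp was over these WT-young tumors, so the WT test and the interaction below are not independent of the choice. The means were 6.03 ± 1.81 (SD, n = 4) and 16.9 ± 8.10 FPKM (SD, n = 4), a 2.81-fold difference, and Prelp fell by 1.29 (SE 0.25; limma, adjusted p = 0.000866). In KO-8-hetero tumors it was 7.06, 14.9 and 15.9 FPKM and in KO-8-homo tumors 10.3, 12.3 and 15.4 FPKM, against 23.9, 27.03, 18.3 and 20.2 FPKM in KO-8 normal libraries. These groups did not overlap either, as for 12.3% of all genes in this direction, and Prelp fell by 0.81 (SE 0.23; limma, adjusted p = 0.00746).

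Osteoglycin, named for its discovery in bone and present in many connective tissues, showed the largest difference of the 7 in both comparisons. Ogn was 7.74, 12.5, 5.84 and 14.8 FPKM in WT-young tumors, against 78.7 and 41.4 FPKM in young and 29.7 and 22.1 FPKM in old normal libraries. In KO-8-hetero tumors it was 11.4, 12.6 and 8.32 FPKM and in KO-8-homo tumors 16.2, 10.6 and 15.2 FPKM, against 75.9, 60.8, 44.6 and 57.9 FPKM in KO-8 normal libraries. Tumors and normal libraries were fully separate in both comparisons, as for 15.2% of all genes in this direction in WT and 12.3% in KO-8. Ogn fell by 1.89 in WT (SE 0.26; limma, adjusted p = 6.36e-05) and by 2.19 in KO-8 (SE 0.24; limma, adjusted p = 4.66e-06). Mean FPKM, a different measure from these log2 differences, was 4.21-fold and 4.83-fold lower.

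The difference between these tumor effects was tested as an interaction. Of the 7 genes 0 passed, and of all genes 0% passed (0 genes; limma), with 918 at an unadjusted p under 0.05. For Prelp the interaction was 0.48 (95% CI -0.23 to 1.19; limma, adjusted p = 0.812). This interval leaves room for no difference, for a tumor effect in KO-8 somewhat more negative than in WT, and for one up to 1.19 less negative.

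**Figure D3:**
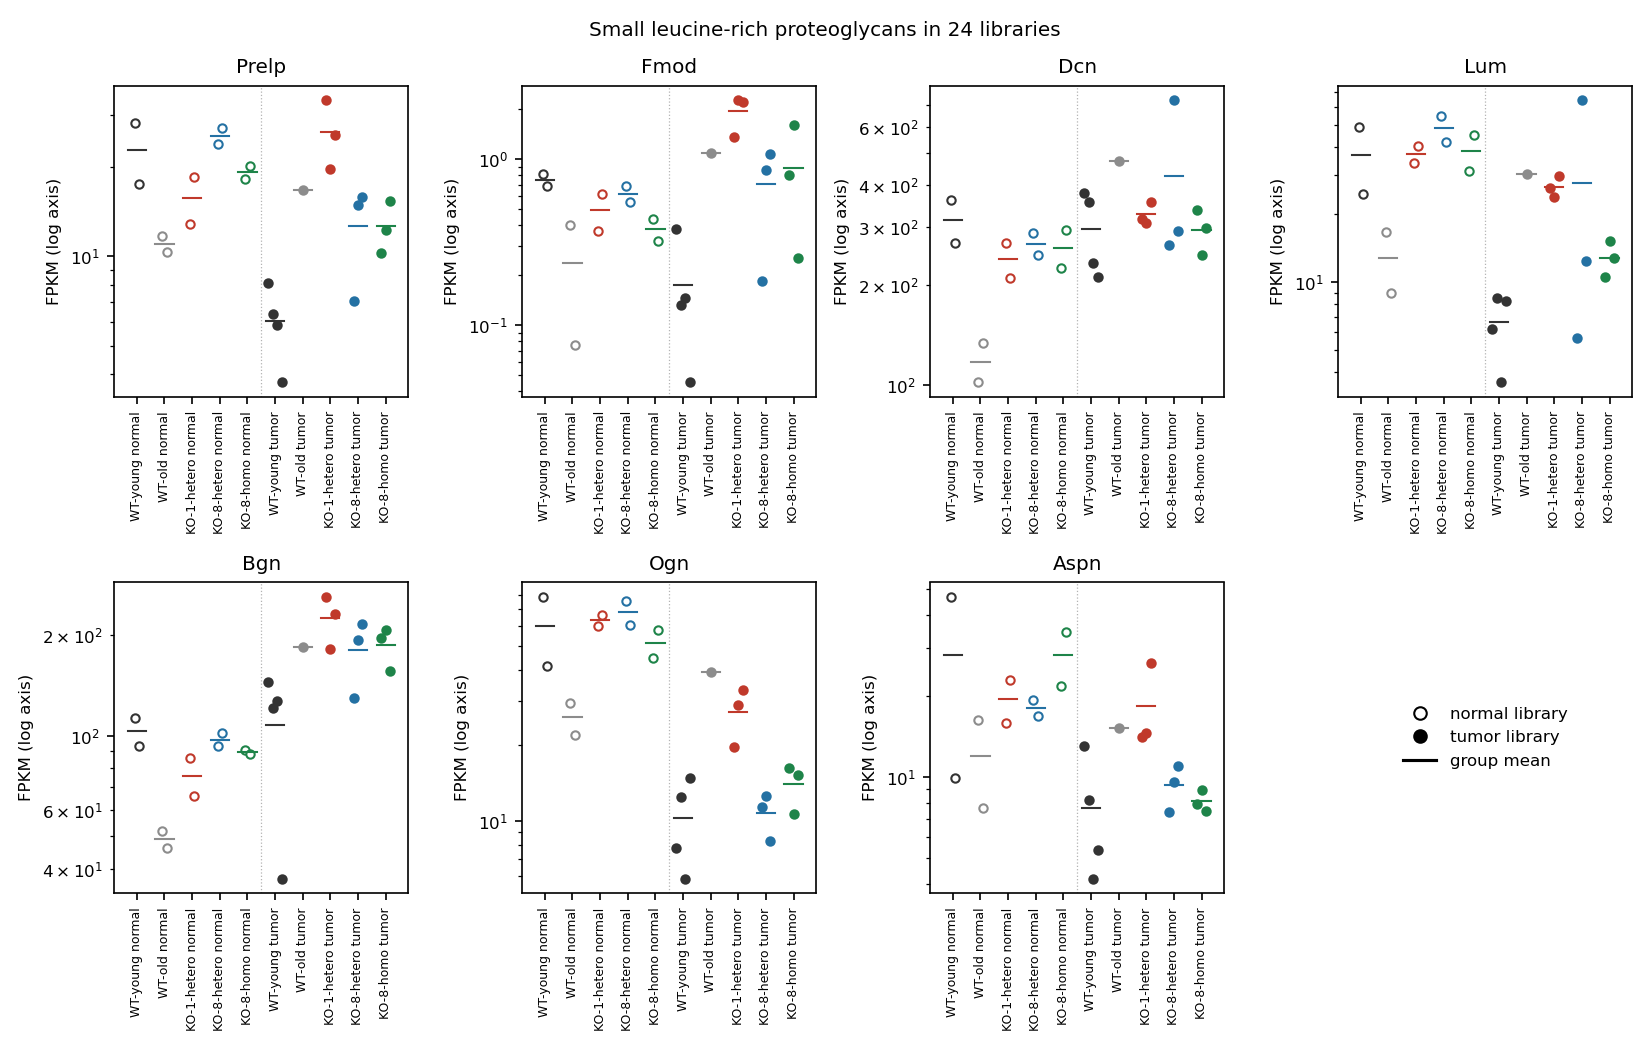
FPKM of each gene on a log axis by group, with open points for normal libraries, filled points for tumors and a line at the group mean. WT-young tumors held the lowest values of Prelp, Lum and Ogn, KO-1-hetero tumors the highest Prelp among tumors, and the WT-old tumor lay above every WT-young tumor for all 7 genes, as for 33.2% of all genes.

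KO-8 tumors were then compared with WT-young tumors, separately by zygosity. These comparisons share the WT-young tumors with each other, with the comparison to normal tissue and with the rise that chose Prelp. Tests of Prelp here are therefore not independent of that choice. None of the 7 passed in KO-8-hetero tumors, where 0.00725% of all genes (1 gene) did, with 961 at an unadjusted p under 0.05. None passed in KO-8-homo tumors, where 0.457% of all genes (63 genes) did, 1399 at an unadjusted p under 0.05. All 7 estimates were above 0 in both, although those of Dcn and Ogn (hetero) and of Dcn and Aspn (homo) crossed 0 when single libraries were left out. Prelp averaged 12.6 ± 4.83 FPKM (SD, n = 3) in KO-8-hetero and 12.7 ± 2.58 FPKM (SD, n = 3) in KO-8-homo tumors, against 6.03 FPKM in WT-young, with differences of 0.92 (95% CI 0.35 to 1.48; limma, adjusted p = 0.657) and 0.98 (95% CI 0.41 to 1.54; limma, adjusted p = 0.157). Prelp, Lum and Bgn of every KO-8-homo tumor lay above every WT-young tumor, a separation that 9.81% of all genes show.

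In the same comparisons Bgn differed by 0.87 (hetero; limma, adjusted p = 0.705) and 0.95 (homo; limma, adjusted p = 0.294), and Lum by 1.30 (limma, adjusted p = 0.705) and 0.90 (limma, adjusted p = 0.594). KO-8-hetero tumor 1 had the lowest Prelp and Lum of the KO-8 tumors; without it Prelp (1.26; limma, adjusted p = 0.0214) and Lum (2.01; limma, adjusted p = 0.0382) passed, and without tumor 2, which had the highest Lum, the Lum difference was 0.37 (limma, adjusted p = 0.999). Fmod differed by 0.50 and 0.63, Aspn by 0.34 and 0.18, Ogn by 0.13 and 0.48, and Dcn by 0.42 and 0.03, none of them past the threshold (limma, adjusted p from 0.319 to 0.989). Homozygous and heterozygous KO-8 tumors were compared directly as well: 0 of the 7 passed (0.0507% of all genes), and Prelp differed by 0.06 (95% CI -0.54 to 0.66; limma, adjusted p = 1). Summed smooth muscle markers ranged from 248 to 1322 FPKM in KO-8 tumors and from 179 to 380 FPKM in WT-young tumors; their part in these differences was not tested.

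**Figure D4:**
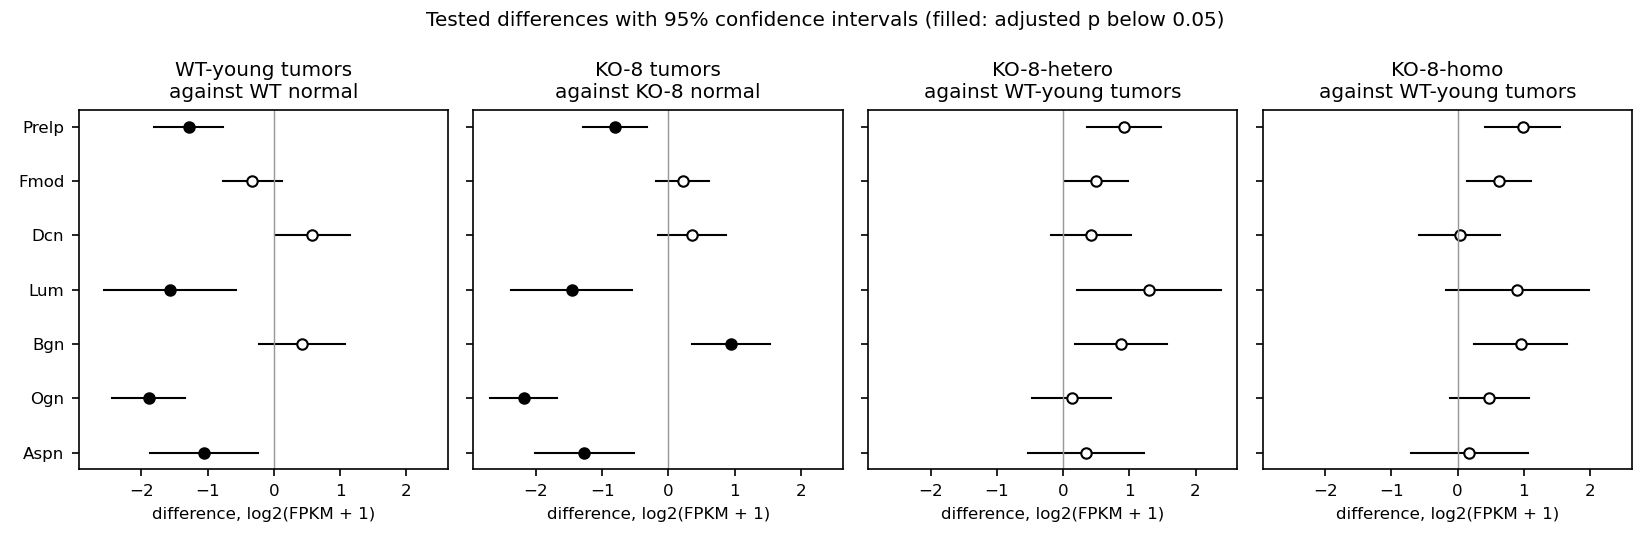
Differences of the 7 genes on the log2(FPKM + 1) scale (horizontal axis) with 95% confidence intervals in 4 tested comparisons; filled points have an adjusted p below 0.05. Prelp, Lum, Ogn and Aspn are filled and to the left of 0 in both tumor-normal panels, Bgn is filled and to the right in KO-8, and all points against WT-young tumors are open.

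The KO-1-hetero tumors are described without a test, because Prelp was chosen for its rise there. The other 6 genes were listed as its relatives, with earlier results of these data known. Prelp was 33.6, 19.6 and 25.7 FPKM, with a mean of 26.3 ± 7.01 (SD, n = 3), 4.36 times the mean of the WT-young tumors and 2.09 and 2.08 times that of the KO-8-hetero and KO-8-homo tumors. The lowest of the 3 values, 19.6 FPKM, was above the highest of the KO-8, WT-young and WT-old tumors, 16.7 FPKM. Normal pieces of that label had 12.9 and 18.5 FPKM of Prelp, below each of the tumors of that label, and the WT-old tumor was likewise above its own normal pair. Ordered by mean, Prelp ran from KO-1-hetero tumors (26.3 FPKM) over KO-8-hetero normal (25.5), WT-young normal (22.8), KO-8-homo normal (19.2), the WT-old tumor (16.7), KO-1-hetero normal (15.7), KO-8-homo tumors (12.7), KO-8-hetero tumors (12.6) and WT-old normal (11.01) to WT-young tumors (6.03 FPKM). Neighbours in this order mostly overlapped, but the WT-young tumors, at most 8.14 FPKM, were below every group except KO-8-hetero tumors.

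Of the 7 genes, 6 (all but Dcn) were higher in each KO-1-hetero tumor than in each WT-young tumor; 12.6% of all genes show this, and nothing is read from the count, since Prelp was chosen for this rise and Fmod, at 1 FPKM or more in 3 libraries besides these tumors, passed the filter through them. Bgn was 261, 182 and 232 FPKM, 2.096 times the WT-young mean. Aspn was 14.0, 14.5 and 26.6 FPKM, 2.40 times that mean. Lum was 26.1, 23.8 and 29.6 FPKM, 3.99 times that mean and without the spread seen in KO-8-hetero tumors. Ogn was 19.6, 29.0 and 33.3 FPKM, 2.67 times the WT-young mean. Fmod was 1.35, 2.26 and 2.21 FPKM, against at most 0.376 FPKM in WT-young tumors. Dcn was 316, 309 and 357 FPKM, inside the WT-young range. Prelp, Ogn and Aspn were above all 6 KO-8 tumors as well, as 2.93% of all genes were.

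Against the 2 normal libraries of the same label, the KO-1-hetero tumors were higher in Prelp, Dcn, Bgn and Fmod (30.4% of all genes were higher without overlap) and lower in Lum and Ogn (29.8% lower). Both normal libraries were high in Xist (30.3 and 28.9 FPKM) and so was tumor 3 (49.9 FPKM), while tumors 1 and 2 had 0.0460 and 0.0621 FPKM, so the tumor and normal groups differ in sex by this marker; its part in these values, among them those of the X-linked Bgn, was not tested. Bgn was 85.6 and 66.2 FPKM in that normal tissue and Dcn 269 and 210 FPKM. Ogn was 60.1 and 66.5 FPKM there and Lum 33.8 and 40.1 FPKM, so for Ogn and Lum the order of tumor and normal was the one seen in WT and KO-8. Aspn, at 15.8 and 23.0 FPKM, overlapped with the tumors.

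Some cell type markers differed between KO-1-hetero and WT-young tumors. Of 10 smooth muscle markers, 9 were higher in every KO-1-hetero tumor than in every WT-young tumor, and their sum was 722 to 1097 FPKM against 179 to 380 FPKM. Of 12 fibroblast markers, 6 were, with sums of 305 to 391 FPKM against 215 to 291 FPKM. Of 7 B and plasma cell markers, 6 were, with sums of 853 to 943 FPKM against 108 to 316 FPKM, and 1846 FPKM in the WT-old tumor. All 7 were also above every KO-8 tumor, as 2.93% of all genes were. None of 8 endothelial or 6 pericyte markers separated these groups. Under the KO-1-hetero label 5 of 7 leukocyte and 3 of 6 enteric glia markers were all higher. Of 8 epithelial markers 2 were all lower. Of all genes 12.6% were higher and 14.8% lower in this way. The summed levels of these lists overlapped, however. Leukocyte sums were 121 to 190 FPKM in KO-1-hetero and 82.2 to 277 FPKM in WT-young tumors. Enteric glia sums were 20.8 to 23.1 FPKM against 21.3 to 45.3 FPKM, and epithelial sums 5534 to 6931 FPKM against 6686 to 11350.5 FPKM. Of 7 mesothelial markers 2 were all higher (Lrrn4 and Wt1) and 1 all lower (Msln) than in WT-young tumors, and 1 (Wt1) was above every KO-8 tumor. Upk3b, Lrrn4 and Wt1 were at or near 0 in every library, at most 0.585 FPKM, and in KO-1-hetero tumors Lrrn4 and Wt1 reached at most 0.0489 and 0.0664 FPKM. In the KO-8 tumors smooth muscle sums overlapped those of KO-1-hetero, at 248 to 1322 FPKM. The part of these cell types in the levels of the proteoglycans was not tested.

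**Figure D5:**
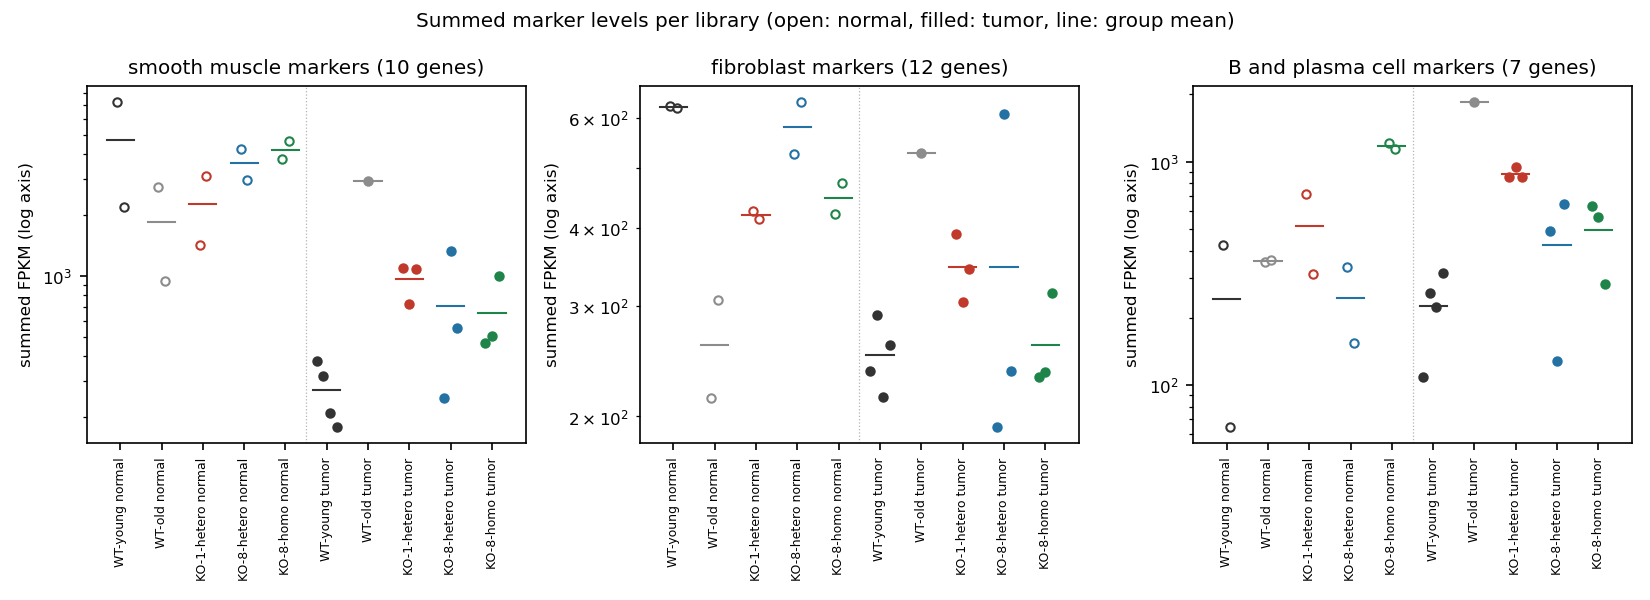
Summed FPKM of smooth muscle, fibroblast and B and plasma cell markers on log axes, by group, with open points for normal libraries and filled points for tumors. For smooth muscle the KO-1-hetero tumors (722 to 1097 FPKM) lie above the WT-young tumors (179 to 380 FPKM) and below the WT-old tumor (2937 FPKM).

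In normal tissue none of the 7 genes passed the test between the 6 KO and the 4 WT libraries (0.0507% of all genes passed, 1055 at an unadjusted p under 0.05). Ogn was 0.64 higher (95% CI 0.14 to 1.14; limma, adjusted p = 0.467), Lum 0.93 higher (95% CI 0.01 to 1.84; limma, adjusted p = 0.645) and Prelp 0.31 higher (95% CI -0.17 to 0.78; limma, adjusted p = 0.842) on the log2 scale. Without the WT-old libraries these differences were 0.0748, 0.21 and -0.17. Xist was above 1 FPKM in 4 of the 6 KO and 0 of the 4 WT normal libraries. KO-1-hetero normal libraries alone, compared with the WT normal libraries, gave 0 of 7 (0.312% of all genes, 43 genes, passed; 1751 at an unadjusted p under 0.05). There the difference was -0.02 for Prelp (95% CI -0.66 to 0.62; limma, adjusted p = 0.987) and 0.71 for Ogn (95% CI 0.03 to 1.38; limma, adjusted p = 0.365). Without the WT-old libraries these were -0.50 and 0.14, and 19 genes passed. Both KO-1-hetero and none of the WT normal libraries were high in Xist, so in these groups sex and label cannot be told apart; with a term for Xist, which these data estimate only from the tumors of the hetero labels, 6 genes passed. The WT-old normal libraries had lower means than the WT-young ones for all 7 genes, for Dcn 118 against 314 FPKM and for Prelp 11.01 against 22.8 FPKM, a pair against a pair.

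Other genes of the family, some of them next to these genes on the chromosomes, moved in both directions. Optc, beside Prelp, fell in tumors by 2.15 in WT and by 2.24 in KO-8 (limma, adjusted p = 4.66e-05 and 9.13e-06). Its FPKM was 0.135 to 0.349 in WT-young and 0.734 to 1.38 in KO-1-hetero tumors. Ecm2, 11.7 kb from Aspn, fell by 0.85 in WT (limma, adjusted p = 0.0127), and its difference of -0.47 in KO-8 did not pass (limma, adjusted p = 0.0907). Tsku, the gene of tsukushi, fell by 2.08 and by 1.34 (limma, adjusted p = 9.70e-06 and 0.000105), and it was the family gene past the threshold in KO-1-hetero normal tissue (-1.53; limma, adjusted p = 0.0234). Podnl1, a podocan relative, rose in KO-8 tumors by 0.80 (limma, adjusted p = 0.00195), and its difference of 0.43 in WT-young tumors did not pass (limma, adjusted p = 0.0984). Omd, between Aspn and Ogn, differed by -0.0046 in WT (limma, adjusted p = 0.981) and rose by 0.36 in KO-8 (limma, adjusted p = 0.0181). Of the 11 other family genes 7 passed the filter. Of these, 3 were lower and 0 higher in WT-young tumors, where 18.5% of all genes were lower and 19.4% higher. In KO-8 tumors 2 were lower, near the 23.9% of all genes, and 4 higher, beside 26.1% of all genes. Kera and Epyc, beside Lum, were near 0 except in KO-8-hetero tumor 2, at 0.864 and 0.817 FPKM, the library that also had the highest Dcn and Lum; Epyc reached at most 0.307 FPKM elsewhere.

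Genes of collagen fibrils, the main partners of these proteins, were counted next; the shares to read this and the following list counts against are 19.4% of all genes higher and 18.5% lower in WT, and 26.1% higher and 23.9% lower in KO-8. Of 18 tested fibrillar collagen and fibril genes, 6 were higher and 1 lower in WT-young tumors, and 11 were higher and 1 lower in KO-8 tumors. Their median difference was 0.81 and 0.94, beside 0.01 and 0.02 over all genes. Col3a1, a main fibrillar collagen of the gut wall, rose by 1.56 in WT and 1.29 in KO-8 (limma, adjusted p = 0.00253 and 0.00329). Lox, which cross-links collagen, rose by 1.59 in KO-8 (limma, adjusted p = 0.000731). Tnxb, the gene of tenascin-X, fell in both, by 1.26 and by 0.98 (limma, adjusted p = 0.000630 and 0.00134). The list's sum was 122 FPKM in the lowest WT-young tumor and 760 FPKM in the highest.

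Enzymes that build the sugar chains were counted by chain type, beside 19.4% of all genes higher and 18.5% lower in WT and 26.1% and 23.9% in KO-8. For the linker that joins the chain to the protein, 2 of 7 genes were lower and 0 higher in each comparison; Pxylp1, the xylose phosphatase of the linker, fell by 0.61 in WT and by 0.70 in KO-8 (limma, adjusted p = 0.00597 and 0.000897). Of 11 tested genes for chondroitin and dermatan sulfate, 2 were higher and 1 lower in WT, with the higher count near the share of all genes, and 4 were higher and 1 lower in KO-8. Chst11, a chondroitin 4-sulfotransferase, rose by 0.67 and 1.49 (limma, adjusted p = 0.0419 and 7.70e-05). Of 6 tested genes for keratan sulfate, 3 were lower and 1 higher in WT and 4 lower and 0 higher in KO-8, although epithelial glycoproteins use several of these enzymes too. B3gnt2, which extends the chain, fell by 0.76 and 0.98 (limma, adjusted p = 0.00328 and 0.000166).

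Proteases reported to cut these proteoglycans, listed with 2 procollagen protease enhancers, were higher in tumors: 8 of 11 tested in WT and 9 of 11 in KO-8, with 0 lower in each, where 19.4% and 26.1% of all genes were higher. Mmp13, a collagenase, rose by 4.33 and 4.06 (limma, adjusted p = 4.14e-05 and 2.03e-05). Mmp14, a membrane-bound protease, rose by 1.57 and 1.44 (limma, adjusted p = 0.000751 and 0.000462). Adamts4, an aggrecanase, rose by 1.13 and 1.46 (limma, adjusted p = 0.00188 and 8.59e-05) and was higher in KO-8-homo than in WT-young tumors by 1.27 (limma, adjusted p = 0.0390). FPKM measures transcripts, so protein cleavage was not measured.

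In the TGF-beta pathway, whose ligand several of these proteins bind, 6 of 17 tested genes were higher and 2 lower in WT-young tumors, and 9 were higher and 0 lower in KO-8 tumors; of all genes 19.4% were higher and 18.5% lower in WT, and 26.1% and 23.9% in KO-8. Tgfbi, a matrix protein induced by TGF-beta, rose by 0.99 and 1.21 (limma, adjusted p = 0.00413 and 0.000351), and Skil, a feedback inhibitor, by 1.05 and 1.36 (limma, adjusted p = 0.00409 and 0.000217). The ligand gene Tgfb3 fell by 0.83 in WT (limma, adjusted p = 0.00710). Tgfbr2, a receptor, rose by 0.85 in KO-8 and was 0.63 higher in KO-8-homo than in WT-young tumors (limma, adjusted p = 2.37e-05 and 0.0390). Among 10 tested receptors reported to bind members of the family, Lrp1, an endocytic receptor, fell by 0.91 in WT (limma, adjusted p = 0.00315) as the 1 gene past the threshold, and 3 rose in KO-8, Egfr by 0.85 among them (limma, adjusted p = 0.00240).

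Some markers of other cell types also differed between tumor and normal tissue. Of all genes, 18.5% were lower and 19.4% higher in WT, and 23.9% lower and 26.1% higher in KO-8. Smooth muscle markers were lower for 9 of 10 genes in WT and 10 of 10 in KO-8, with median differences of -3.34 and -2.45; Cnn1, the calponin of smooth muscle, fell by 4.39 and by 3.63 (limma, adjusted p = 8.10e-05 and 0.000105). Of 12 fibroblast markers 3 were lower and 0 higher in WT, and 3 lower and 2 higher in KO-8, with the lower counts near the share of all genes. Clec3b fell by 2.097 and by 2.268 (limma, adjusted p = 0.00170 and 0.000318), while Pdgfra, a receptor marking several fibroblast types, rose by 1.11 in KO-8 (limma, adjusted p = 0.00281). None of 8 endothelial markers passed in WT. In KO-8 2 of them rose, and 1 of 6 pericyte markers was lower in each comparison, counts near the share of all genes. Enteric glia markers were lower for 3 of 4 tested genes in each. B and plasma cell markers were lower for 5 of 7 genes in WT and 3 of 7 in KO-8, and leukocyte markers higher for 4 of 7 and 5 of 7. Of 8 epithelial markers 1 was higher in WT and 3 were lower in KO-8, and of 4 tested mesothelial markers Msln was higher in both and Krt19, which the epithelium also expresses, lower in KO-8. Smooth muscle sums were 943 to 7224 FPKM in WT normal and 2972 to 4618 FPKM in KO-8 normal libraries. The summed muscle level thus moved with the lower Ogn, Prelp, Lum and Aspn of WT-young and KO-8 tumors. In KO-1-hetero the sum was also lower in tumors (722 to 1097 FPKM) than in normal tissue (1418 and 3121 FPKM). There Ogn and Lum were lower in tumors, Aspn overlapped and Prelp was higher. The part of the muscle level was not tested.

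The genes whose log2(FPKM + 1) profile over the 24 libraries was most like that of each member are given as a description, since the libraries share tissue, depth and composition. For Prelp these were Ggcx (Pearson r = 0.89), Arhgef25 (0.89), Fbln1 (0.89), Tnfsf12 (0.88) and Dlg4 (0.88). For Bgn they were Igfbp7 (0.95), P3h3 (0.94) and Stab1 (0.92), and for Ogn Wfdc1 (0.95), Gstt1 (0.92) and Il11ra1 (0.92). For Lum they were Cryab (0.92), Fxyd1 (0.90) and Mfap5 (0.89), for Aspn Tmem255b (0.90), Il17d (0.89) and Pbx3 (0.89), and for Dcn Emp3 (0.87), Thy1 (0.85) and Pcolce (0.84). Fmod, the lowest member, had the weakest best match, Slco3a1 (0.77). The members did not appear among each other's nearest profiles.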

How the data were processed

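The labels' protocols name a miRNeasy kit for the RNA and a stranded TruSeq mRNA kit for the libraries. The authors deposited 1 table of FPKM per library, per the file headers; the submitters' processing notes name TopHat2 2.1.1, Bowtie2 2.2.8, SAMtools 0.1.18, Cuffdiff 2.2.1 and mm10, and the gene annotation behind the tables and the strand setting are not given in the sources used here. FPKM tables hold no fragment totals, so depth was only estimated relative to the median library and no counting interval was computed.

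Groups were taken from the sample titles. Values were used as log2(FPKM + 1), a pseudocount of 1, for the 13799 genes with at least 1 FPKM in at least 4 of the 24 libraries. limma 3.58.1 in R 4.3.3 (two-sided moderated tests with eBayes, its trend option on; Benjamini-Hochberg over all genes; threshold 0.05) was fitted to all 10 groups. Other values were computed in Python 3.11.15 with pandas 2.3.3 and numpy 2.4.6. The KO-1-hetero tumors were not tested. The 7 genes and all gene lists were chosen with earlier results of these data known. Named list genes are up to 3 per list with the smallest p in the tumor-normal comparisons, up to 2 that pass between KO and WT, and the family genes beside the members. Of 18 TGF-beta genes, 17 matched a symbol in the tables. Alternatives were a pseudocount of 0.1, no filter, upper-quartile and equal-sum scaling, only the groups compared, no trend, a replicate block, a term for Xist above 1 FPKM (6 libraries), leaving out WT-old, and leaving out each library.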

Additional observations from a re-analysis of the deposited data

Results flagged for a closer look

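KO-8-hetero tumor 2 stood far from the other 5 KO-8 tumors for Dcn, at 722 FPKM, and for Lum, at 64.3 FPKM. These were the 2 of 35 sets of group and gene in which the end value passed Dixon's 95% limit, and chance gives about 1 in 20. The same library had 1322 summed FPKM of smooth muscle markers and 609 summed FPKM of fibroblast markers, the highest of the KO-8 tumors for each. It was also the highest of them for leukocyte (916 FPKM), endothelial (118 FPKM), pericyte (108 FPKM) and mesothelial (3006 FPKM) markers. For B and plasma cell markers it was the lowest (128 FPKM), and for enteric glia and epithelial markers it was neither.

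The WT-old tumor entered no tested difference between tumors, since it is 1 library, and all 7 genes were higher in it than in every WT-young tumor, as were 33.2% of all genes. Prelp was 16.7 FPKM, Dcn 472 FPKM, Lum 30.1 FPKM, Bgn 185 FPKM, Fmod 1.08 FPKM, Ogn 39.5 FPKM and Aspn 15.2 FPKM. Its summed markers were 2937 FPKM for smooth muscle and 1846 FPKM for B and plasma cells, also above every WT-young tumor.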

How the results depend on the processing

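In KO-8 tumors against normal tissue, the number of members past the threshold stayed within 1.5 times the 5 found under every alternative run, and in WT within 1.5 times the 4 except when a library was left out (2 to 4). Which genes passed, and in which direction, did change. With equal-sum scaling 4 passed in KO-8, with Bgn and Dcn higher and Lum and Ogn lower. In WT 4 passed under it, with Dcn higher and Lum, Ogn and Prelp lower. The count was 0 in the other comparisons, except 0 to 2 in KO-8-hetero against WT-young tumors with a library left out. The values that changed direction had not passed the test. Without the WT-old libraries the WT tumor difference was -0.10 for Bgn and -0.12 for Dcn, and the difference of KO from WT normal tissue was -0.17 for Prelp, 0.0748 for Ogn and 0.21 for Lum. With upper-quartile scaling Prelp in KO-1-hetero normal tissue differed by 0.0104. With a library left out, Dcn ranged from -0.0386 to 0.68 in KO-8-hetero and from -0.11 to 0.16 in KO-8-homo against WT-young tumors, Ogn from -0.0821 to 0.32 in the first and Aspn from -0.0366 to 0.44 in the second; Prelp ranged from -0.28 to 0.25 between KO-8-homo and KO-8-hetero tumors and from -0.27 to 0.22 in KO-1-hetero normal tissue.

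Whether the replicate numbers of the titles pair tumors with normal pieces could not be settled. Of 8 pairs of equal number, 1 had a correlation of deviations from the group means above 0.1 (range -0.16 to 0.36). With 2 normal libraries per group, their deviations mirror each other, so these are not 8 separate checks. With the replicate number as a block, 5 members passed in WT (Bgn at 0.86 and Dcn at 0.81 gained, Aspn at -0.93 lost), 5 in KO-8 and 0 in the other comparisons, and Dcn in KO-8-homo against WT-young tumors was -0.11. WT-young tumor 4 is the only library numbered 4, so the block fits it exactly and leaves it without weight in the comparisons. Without that tumor and without the block, the WT difference of Bgn was 0.87. Counts over all genes ranged, with 1 library left out, from 3921 to 5281 in WT and from 5505 to 7561 in KO-8, but from 0 to 242 in KO-8-hetero and from 18 to 49 in KO-8-homo against WT-young tumors, from 0 to 342 between KO-8-homo and KO-8-hetero tumors, from 0 to 663 for the interaction, from 2 to 708 for KO against WT and from 4 to 662 for KO-1-hetero against WT normal tissue. Over the other alternatives the last 6 ranged from 0 to 2, 39 to 135, 0 to 15, 0 to 2, 0 to 17 and 6 to 61. The cause of these changes was not tested. Fmod reached 1 FPKM in 6 of 24 libraries; with no fragment totals, what depth limits was not tested.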
